A study of Mus musculus with 2 samples.

Results

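Neuropeptide Y, peptide YY and pancreatic polypeptide form one family of short amidated peptides, and the mouse genes that encode them are Npy, Pyy and Ppy. All 3 were present by symbol among the 27998 genes listed for both libraries, and they are the members described here. Their UMIs (unique molecular identifiers, 1 per captured transcript, so that PCR copies are counted once) were followed in each droplet barcode according to the hormone that led it. The family was selected on measured values of these same libraries, namely the Npy level in somatostatin-rich barcodes and the hormone shares, so those values are given as a description.

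The study asked how loss of ghrelin, a stomach hormone that also acts on pancreatic islets, changes islet cells. Islet cells of WT and GKO (homozygous ghrelin knockout) littermates on the C57BL/6N strain, at 8 weeks of age and fed standard chow, were sorted by FACS for viability and profiled by droplet-based single-cell RNA-Seq of transcript 3′ ends. The GKO mice lack the ghrelin gene from conception and in every tissue. Each genotype was 1 library made from the pooled pancreata of 4 mice, so no difference between genotypes could be tested, and the animals cannot be told apart within a pool. Every interval below is an exact 95% interval that covers counting error only, and the spread between mice is unknown. UMIs that sit together in a few barcodes vary more than such an interval shows.

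Both peptide YY and pancreatic polypeptide are circulating hormones. Pancreatic polypeptide marks the γ cell of the islet, whereas peptide YY is better known from endocrine cells of the lower gut and is also made by islet cells. Neuropeptide Y is mainly a transmitter of sympathetic and brain neurons, and in islets it is known as an inhibitor of insulin secretion that is more abundant in immature than in mature β cells. The family acts through Y receptors, a group of Gi-coupled receptors, and each peptide is cut from a longer precursor by prohormone convertases and amidated at its end by the enzyme encoded by Pam.

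The 3 members share a gene layout. On the GRCm38 assembly (GENCODE vM21), Npy (ENSMUSG00000029819) lies on the plus strand at chr6:49822710-49829507. Pyy (ENSMUSG00000017311) lies on the minus strand at chr11:102106676-102107832, and Ppy (ENSMUSG00000017316) lies on the same strand at chr11:102099930-102101319. A gap of 5356 bases separates Ppy from Pyy, and the annotation places no other gene in it. Each gene has 4 exons, and in each the 36 codons of the mature peptide begin in exon 2 and end in exon 3, with 104 bases in exon 2 and 13 in exon 3 once the next 3 codons are counted. The stretch is shown here because the family is defined by it. It is coding sequence from the reference, read 5′ to 3′, with the peptide in lower case and the 9 bases of the amidation and cleavage signal in capitals:
Npy: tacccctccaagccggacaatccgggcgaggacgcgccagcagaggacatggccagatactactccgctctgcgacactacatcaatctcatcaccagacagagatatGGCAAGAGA
Pyy: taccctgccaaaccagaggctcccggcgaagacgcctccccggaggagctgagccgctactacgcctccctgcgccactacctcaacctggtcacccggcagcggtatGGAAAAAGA
Ppy: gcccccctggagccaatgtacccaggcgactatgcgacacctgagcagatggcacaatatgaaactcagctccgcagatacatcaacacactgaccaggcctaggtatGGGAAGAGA
Over the 108 peptide bases, Npy and Pyy were identical at 76 positions (70.4%), Npy and Ppy at 61 (56.5%), and Pyy and Ppy at 58 (53.7%). In the translated peptides, 24 of 36 residues were shared by Npy and Pyy (66.7%), 18 by Npy and Ppy (50.0%), and 16 by Pyy and Ppy (44.4%), with 15 residues the same in all 3. The neighbors on the chromosome, Pyy and Ppy, were thus the least alike pair in this stretch.

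A barcode was assigned to the hormone with the largest share of its UMIs among Ins1 plus Ins2 (insulin), Gcg (glucagon), Sst (somatostatin) and Ppy, provided that share reached 10%. The Ins-led class held 2265 WT and 872 GKO barcodes, the Gcg-led class 1048 and 1397, the Sst-led class 1414 and 1003, and the Ppy-led class 717 and 669. The remaining 1656 WT and 2405 GKO barcodes had no leading hormone (none-led) and consisted mostly of endothelial, stellate or fibroblast, macrophage and ductal gene profiles. The library totals were 158067110 UMIs over 7792 barcodes in WT and 103511757 UMIs over 7289 barcodes in GKO, of which 7100 and 6346 barcodes were kept because they had 500 genes or more and no more than 10% mitochondrial UMIs. Median depth differed little between genotypes within a class, from 8567.5 and 8053 UMIs in none-led barcodes to 37124 and 35811 in Ins-led barcodes. Ins-led barcodes made up 31.9% of the WT and 13.7% of the GKO library. The knocked-out gene, Ghrl, had 43634 UMIs in WT and 280 in GKO, and 276 of the latter sat in 1 none-led barcode, which goes against the GKO label and had no Npy UMI. A total of 18 barcode sequences occurred in both libraries. Hhex, a transcription factor of δ cells, reached 211 and 224 CPM (UMIs per 1000000 UMIs of the class) in Sst-led barcodes against 9.43 and 11.5 CPM in Ins-led barcodes.

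Each member had its own order of levels across the classes, and that order was the same in both libraries for Pyy and Ppy but not for Npy. Ppy ran from 340168 CPM in WT and 334003 CPM in GKO among Ppy-led barcodes, which the assignment itself fixes, to 29101 and 25344 CPM in Sst-led, 15138 and 10209 CPM in Gcg-led, 7490 and 6520 CPM in Ins-led, and 5152 and 3985 CPM in none-led barcodes. Pyy was highest in Ppy-led barcodes too, at 118457 and 117846 CPM, followed by 53272 and 48774 CPM in Sst-led and 21153 and 18482 CPM in Gcg-led barcodes. The none-led class had 8559 and 5524 CPM of Pyy, and the Ins-led class had 4729 and 4653 CPM. Counting intervals on these sums were narrow, and no pair of neighboring classes overlapped within a library for either gene. They leave out the clumping of UMIs in a few barcodes, so they do not separate the classes. As medians over barcodes, Ppy was 731 CPM in Ins-led and 791 CPM in none-led barcodes of WT, and 672 and 648 CPM in GKO. The Pyy medians were 329 and 325 CPM in WT and 254 and 226 CPM in GKO, opposite to the order of the sums.

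The Npy order differed between genotypes. In WT it was 27.9 CPM (2483 UMIs) in Ins-led, 7.78 CPM (130 UMIs) in Sst-led, 5.44 CPM (94 UMIs) in Ppy-led, 1.93 CPM (28 UMIs) in Gcg-led and 0.682 CPM (12 UMIs) in none-led barcodes. In GKO it was 53.2 CPM (584 UMIs) in Sst-led, 25.02 CPM (821 UMIs) in Ins-led, 23.3 CPM (508 UMIs) in none-led, 2.14 CPM (40 UMIs) in Gcg-led and 0.771 CPM (12 UMIs) in Ppy-led barcodes. In WT the intervals of Sst-led (6.50 to 9.24 CPM) and Ppy-led barcodes (4.40 to 6.66 CPM) overlapped. In GKO those of Ins-led (23.3 to 26.8 CPM) and none-led barcodes (21.3 to 25.4 CPM) did. Each overlap involved a class in which 1 barcode held most Npy UMIs, 92 of 94 in WT Ppy-led and 452 of 508 in GKO none-led barcodes. Without that barcode the levels were 0.116 CPM and 2.57 CPM, so the overlaps and the places of these classes rested on single barcodes. In WT Gcg-led barcodes 1 barcode held 22 of the 28 UMIs. Of the Npy UMIs in kept barcodes, Ins-led barcodes held 90.4% in WT and 41.8% in GKO, and Sst-led barcodes held 4.73% and 29.7%. These shares also follow the number of barcodes, which was 2265 in WT and 872 in GKO for the Ins-led class. A single none-led barcode held 23.0% of the GKO UMIs.

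**Figure D1:**
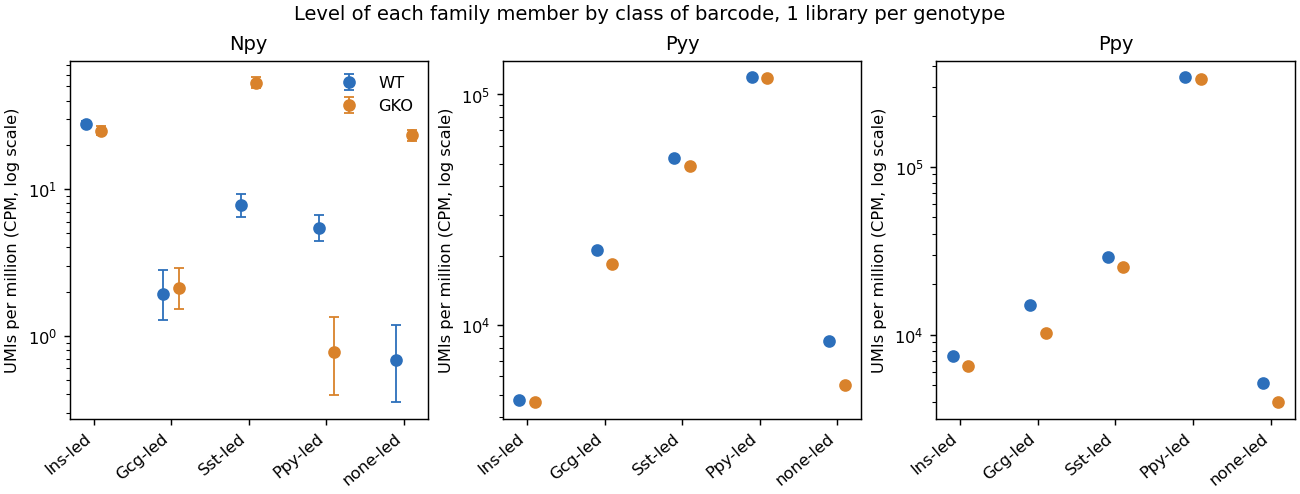
Level of Npy, Pyy and Ppy in CPM (log scale) by class of barcode, with WT in blue and GKO in orange, 1 library each. Bars are exact 95% Poisson intervals, which are smaller than the points for Pyy and Ppy. Npy lay at 7.78 CPM in WT and 53.2 CPM in GKO among Sst-led barcodes, whereas the Pyy and Ppy points of the 2 libraries lay close together in the Ppy-led class.

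To set the members beside all other genes, genes with at least 50 UMIs over both libraries were compared in each class, and a gene was counted when its GKO and WT levels differed at least 2-fold. All 3 members had enough UMIs in all 5 classes. In Sst-led barcodes 1 of the 3 members differed 2-fold, against 1.21% of 11881 genes, and it was the contrast on which the family was selected. In Ins-led barcodes 0 of the 3 did (background 2.33% of 13047 genes), and in Gcg-led barcodes 0 of the 3 did (1.49% of 11922 genes). In Ppy-led barcodes 1 of the 3 did (1.55% of 11496 genes), and in none-led barcodes 1 of the 3 did (5.28% of 13981 genes). Each time the member was Npy, and in the last 2 classes single barcodes carried most of its UMIs, as given below. No such count has a replicate behind it.

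Npy was 6.84-fold higher in GKO than in WT among Sst-led barcodes, a log2 ratio of 2.77 (95% interval 2.50 to 3.06), beside a median of 0.03 over all genes compared in the class. A larger ratio was found for 5 of the 11881 genes, a rank given as a description because the family was selected on this contrast. Most Sst-led barcodes had no Npy UMI at all, 1384 of 1414 in WT and 954 of 1003 in GKO. At least 1 Npy UMI was found in 2.12% (1.44% to 3.02%) of the WT and 4.89% (3.64% to 6.41%) of the GKO barcodes, at median depths of 11065 and 10148 UMIs. When each barcode was thinned to 5000 UMIs, with 17 WT and 11 GKO shallower barcodes left out, the shares were 1.503% (0.933% to 2.29%) and 3.33% (2.30% to 4.64%). For comparison, endothelial-gene barcodes, which should lack the transcript, had 0 Npy UMIs in 579 WT barcodes, where 3 counts would be 0.601 CPM, and 3 Npy UMIs in 438 GKO barcodes (0.831 CPM), at median depths of 7015 and 7366.5 UMIs.

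The difference lay in the barcodes with many Npy UMIs. A count of 5 or more was reached by 8 WT barcodes (0.566% of the class) and by 28 GKO barcodes (2.79%). These held 87 of the 130 WT UMIs (66.9%) and 555 of the 584 GKO UMIs (95.03%). The 8 WT barcodes had 32, 13, 9, 8, 8, 6, 6 and 5 Npy UMIs. In the 28 GKO barcodes the lowest count was 5, the median 12 and the highest 53, and 11 of them had 20 or more against 1 in WT. At the low end the libraries were closer, with a single Npy UMI in 11 WT and 15 GKO barcodes and 2 to 4 UMIs in 11 and 6. Summed over the Npy-rich barcodes, Npy stood at 819 CPM in WT and 1605 CPM in GKO. The number of Npy-rich barcodes, the level in each and the size of the class all enter the sum for a class, and with 1 pool per genotype it cannot be told apart whether they came from 1 mouse or from several.

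**Figure D2:**
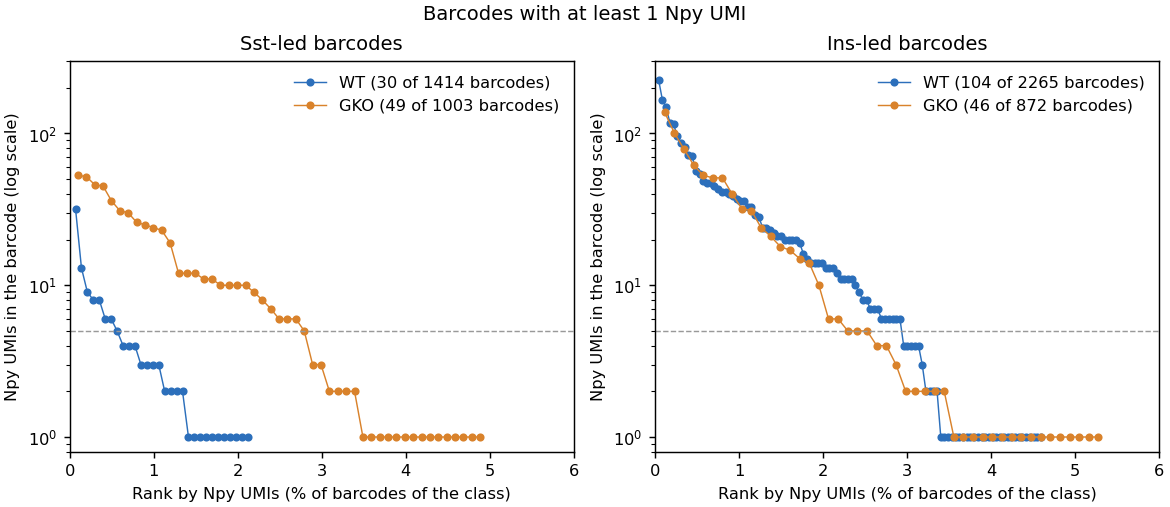
Npy UMIs (log scale) of each barcode with at least 1, ranked within its class and placed at its rank as a percent of the class, for Sst-led (left) and Ins-led barcodes (right). The dashed line marks 5 UMIs. The GKO curve lies above the WT curve throughout the Sst-led panel, with 28 against 8 barcodes at or over the line, whereas the Ins-led curves run close together.

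The Npy-rich barcodes of the Sst-led class carried the class hormone at ordinary shares. Sst made up 13.7% to 26.2% of their UMIs in WT and 11.4% to 35.2% in GKO. They were somewhat deeper than the barcodes without Npy, with medians of 13882.5 against 11032 UMIs in WT and 11464.5 against 10110 in GKO. A second hormone at 5% or more was present in 2 of 8 and 2 of 28 of them, compared with 23.0% and 20.3% of the barcodes without Npy. When all barcodes with a second hormone were left out of the class, the log2 ratio of Npy was 3.34.

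By a rule that took the 5 genes with the largest ratio to barcodes without Npy in both libraries, among 558 genes with enough UMIs, the companions of Npy in Sst-led barcodes were Ambp, Iapp, Rtn4, Ptprz1 and S100a10. The ratio for Ambp was 2.88 in WT and 2.09 in GKO. Iapp, which encodes amylin, stood at 53003 against 27521 CPM in WT (1.93-fold) and 53608 against 29964 CPM in GKO (1.79-fold). By barcode, Iapp lay above the median of the Npy-free barcodes in 8 of 8 WT and 27 of 28 GKO Npy-rich barcodes. Iapp was picked by its ratio in these same barcodes, so the count is a description and adds no support. The remaining 3 genes were 1.45-fold to 1.75-fold higher. In the 8 WT Npy-rich barcodes these 3 had 21 to 31 UMIs each, and Ambp had 36. Because Iapp is also a β cell gene, the rest of the β cell marker list is set beside it. Ins1 and Ins2 were 0.907-fold and 0.898-fold the level of the Npy-free barcodes in WT and 0.941-fold and 0.918-fold in GKO, and the β cell genes Mafa, Nkx6-1 and G6pc2 had 0 UMIs in the Npy-rich barcodes of both libraries. These 3 were also scarce in Npy-free barcodes, where the highest of them, Nkx6-1, had 7.85 CPM in WT and 7.92 CPM in GKO. Their counts of 0 in so few barcodes thus lie near the floor. The last of the β cell markers, Slc2a2 and Ucn3, had 2 and 1 UMIs in WT, or 3.99-fold and 6.14-fold the Npy-free level. In GKO they had 2 UMIs (1.66-fold) and 0. Such counts are too small to give a direction. Among the α cell markers, Gcg reached 1% of UMIs in 0 of the WT and 2 of the GKO Npy-rich barcodes, with a highest share of 9.89%.

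Pdyn, which is on the δ cell marker list and encodes the opioid precursor prodynorphin, had at least 1 UMI in 18 of 28 GKO Npy-rich barcodes (64.3%, 44.1% to 81.4%). In WT it did so in 3 of 8 (37.5%, 8.52% to 75.5%). Its share among barcodes without Npy was 19.5% in GKO and 22.0% in WT. In those barcodes Pdyn had 50.0 CPM in WT and 47.5 CPM in GKO. Ins-led barcodes without Npy had 48.8 and 68.6 CPM, so Pdyn was not particular to the Sst-led class. Over the whole Sst-led class Pdyn reached 50.9 CPM in the WT and 54.5 CPM in the GKO library, a log2 ratio of 0.10 (−0.06 to 0.25). Other δ cell markers were nearer to 1 in the Npy-rich barcodes, Hhex at 1.39-fold and 1.10-fold and Rbp4, a retinol carrier, at 1.24-fold and 0.796-fold the level without Npy in WT and GKO.

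The relatives of Npy in these same barcodes went separate ways. The median Pyy share of the Npy-rich barcodes was 4.74% in WT and 5.83% in GKO, against 4.85% and 4.51% without Npy. The median Ppy share was 1.24% and 0.333%, against 2.36% and 1.93%. Of the 28 Npy-rich GKO barcodes, 19 had Ppy under 1% of UMIs (67.9%), and so did 36.8% of the GKO barcodes without Npy. The WT counts were 4 of 8 and 32.5%.

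Ins-led barcodes carried Npy at 27.9 CPM in the WT and 25.02 CPM in the GKO library, a log2 ratio of −0.16 (−0.27 to −0.04) beside a median of 0.08 over all genes of the class. Here too the UMIs sat in a small share of barcodes. The richest 12 of 2265 WT barcodes and the richest 5 of 872 GKO barcodes held 50% of the UMIs of their library in this class. Barcodes with 5 or more Npy UMIs numbered 66 in WT (2.91%) and 22 in GKO (2.52%), and they held 97.6% and 95.5% of the Npy of the class. The richest single barcodes had 224 and 138 UMIs. At least 1 UMI was found in 4.59% of WT and 5.28% of GKO barcodes, or in 2.83% (2.19% to 3.61%) and 2.64% (1.68% to 3.94%) after thinning to 5000 UMIs. Without the 5 richest barcodes of each library the log2 ratio was −0.69, and without the barcodes with the highest doublet score it was 0.09. That removal was uneven, with 21 of the 2265 WT and 129 of the 872 GKO barcodes called. With the same neighbor share for the score in both libraries the ratio was −0.01. The direction was thus not the same in every setting, and 16 of 17 alternatives were negative.

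The Npy-rich Ins-led barcodes had insulin at a median of 66.0% and 66.7% of UMIs in WT and GKO, against 61.7% and 60.3% without Npy. Their median Pyy share was 0.028% and 0.021%, against 0.033% and 0.026%. Summed over barcodes, Ppy was 0.136-fold and 0.924-fold the level without Npy in WT and GKO. Gcg was 0.518-fold and 0.0987-fold that level, and Sst 1.10-fold and 0.457-fold. The same rule for companion genes, applied to this class after the values of the Sst-led class had been seen, named Mt3, Tm4sf1, Rgs5, Pappa2 and Adam32 among 3068 genes. Mt3, a metallothionein, was 2.89-fold and 3.23-fold higher than in Npy-free barcodes in WT and GKO, and Pappa2, a protease that acts on IGF-binding proteins, was 1.76-fold and 2.26-fold higher. The lists of the Ins-led and Sst-led classes had no gene in common. Lists this short, drawn from 3068 and 558 genes, could lack a shared gene by chance alone. Whether the genes named for Ins-led barcodes had enough UMIs to be compared in Sst-led barcodes was not tested. The lists therefore do not show a difference between the classes.

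In the other classes the Npy sums depended on single barcodes. Of the 94 WT UMIs in Ppy-led barcodes, 92 came from 1 barcode that had 23.6% Ppy and 11.7% Sst among its UMIs. Without it the WT level was 0.116 CPM (2 UMIs), below the 0.771 CPM of GKO, where 12 barcodes had 1 UMI each. The log2 ratio of −2.82 in this class thus turned to 3.57 when barcodes with a second hormone of at least 5% were left out. Of the 28 WT UMIs in Gcg-led barcodes, 22 came from 1 barcode with 21.9% Gcg and 8.45% Sst, and the richest GKO barcode of that class, with 7 Npy UMIs, had 15.4% Gcg and 13.3% Sst. The share of Gcg-led barcodes with an Npy UMI was 0.668% in WT and 1.86% in GKO, or 0.482% and 0.796% after thinning. That of none-led barcodes after the same thinning was 0.307% and 0.751%. The part of free RNA in these shares was not tested.

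Among none-led barcodes 1 GKO barcode held 452 of the 508 Npy UMIs, and the level without it was 2.57 CPM against 0.682 CPM in WT. This barcode had 80647 UMIs and 8863 genes, and 5 of 7 listed neuron genes were detected in it, with 899 UMIs in all. Among them Stmn2, a stathmin of growing axons, had 397 UMIs, Tubb3, a neuronal tubulin, had 292, and Prph, the neurofilament peripherin, had 172. Th and Dbh, which encode the enzymes of noradrenaline synthesis, had 0. Vip, which encodes vasoactive intestinal peptide, had 522 UMIs in it, and the vesicular acetylcholine transporter gene Slc18a3 had 39. The same barcode had 172 UMIs of listed endothelial genes and 133 of listed macrophage genes. It was among the called doublets, without which 55 Npy UMIs were left in GKO none-led barcodes. Whether it held more than 1 cell was not tested. In the WT library the highest sum of the neuron list in any kept barcode was 38 UMIs. The few barcodes with glial genes also carried Npy, with 6 UMIs in 4 of 6 WT barcodes and 12 UMIs in 2 of 5 GKO barcodes.

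Pyy was present in every Ppy-led and Sst-led barcode of both libraries, and its share of UMIs varied widely within each class. In Ppy-led barcodes the median share was 9.93% in WT and 10.4% in GKO, with 10th and 90th percentiles of 4.82% and 19.5% in WT and 4.95% and 19.01% in GKO. In Sst-led barcodes the median was 4.84% and 4.55%, with percentiles of 2.45% and 8.79% in WT and 2.25% and 7.91% in GKO. A Pyy share of at least 1% was found in 98.5% of WT and 98.4% of GKO Sst-led barcodes, so that Pyy was a general feature of this class, unlike Npy.

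In Gcg-led and Ins-led barcodes fewer reached a Pyy share of 1%. In Gcg-led barcodes the median was 0.854% in WT and 0.601% in GKO, the 90th percentiles were 4.65% and 4.14%, and 46.1% and 40.7% of the barcodes reached 1%, while 86.0% and 79.8% reached 0.1%. In Ins-led barcodes 14.3% and 11.9% reached 1%, and the median of 0.033% and 0.025% was near the 0.029% and 0.021% of endothelial-gene barcodes. The median Ppy share of Ins-led barcodes, 0.073% and 0.067%, was likewise near the 0.074% and 0.059% of endothelial-gene barcodes. Whether such a level, alike in cells that should not make the hormone, came from free RNA in the droplets was not tested.

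Among none-led barcodes, 161 in WT and 147 in GKO had at least 1% Pyy and held 95.9% and 94.8% of the Pyy of the class. They had a median of 7.94% and 8.30% for their largest hormone, so most lay just under the limit for a leading hormone. Pyy exceeded each of the 4 hormones in 46 and 35 of them, and the highest Pyy share was 55.4% in WT and 20.5% in GKO.

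The Pyy levels of the libraries differed by at most 1.14-fold in the 4 hormone-led classes with all kept barcodes. The log2 ratio of GKO to WT was −0.01 (−0.010 to −0.005) in Ppy-led, −0.13 (−0.132 to −0.122) in Sst-led, −0.19 (−0.202 to −0.188) in Gcg-led and −0.02 (−0.032 to −0.015) in Ins-led barcodes. The Ins-led value depended on the barcodes counted, at −0.59 without called doublets, −0.44 without barcodes with a second hormone and 0.085 with doublets called at 1 neighbor share. The medians over all genes compared were 0.06, 0.03, 0.05 and 0.08. In none-led barcodes it was −0.63 (−0.643 to −0.621), beside a median of 0.0046. In Gcg-led barcodes the value was 0.041 once the level of none-led barcodes was subtracted, so its direction depended on that subtraction. Barcodes with at least 1% Pyy held 95.9% and 94.8% of this none-led Pyy in WT and GKO. With the level of endothelial-gene and macrophage-gene barcodes subtracted instead, the Gcg-led value was −0.21.

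Ppy outside its own class was lower in GKO than in WT in each class, with log2 ratios of −0.57 (−0.577 to −0.559) in Gcg-led, −0.20 (−0.206 to −0.193) in Sst-led, −0.20 (−0.207 to −0.193) in Ins-led and −0.37 (−0.384 to −0.357) in none-led barcodes. In Gcg-led barcodes the share with at least 1% Ppy was 24.6% in WT and 18.2% in GKO, and in Sst-led barcodes it was 67.0% and 62.2%. Of Gcg-led barcodes, 27.1% in WT and 45.9% in GKO had Ppy under 0.1%. The log2 ratio in the Ppy-led class was −0.03, and that level was used to form the class. The barcodes just inside its limit, with 10% to 12% Ppy, numbered 17 and 16 and had 8.27% and 4.67% Pyy over their summed UMIs, and those just outside, with 8% to 10% Ppy, numbered 18 and 13 and had 9.82% and 12.1% Pyy. The ratio in Ins-led barcodes took the opposite sign in 2 of 17 alternative settings, whereas those in Gcg-led and Sst-led barcodes kept theirs in all 17.

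**Figure D3:**
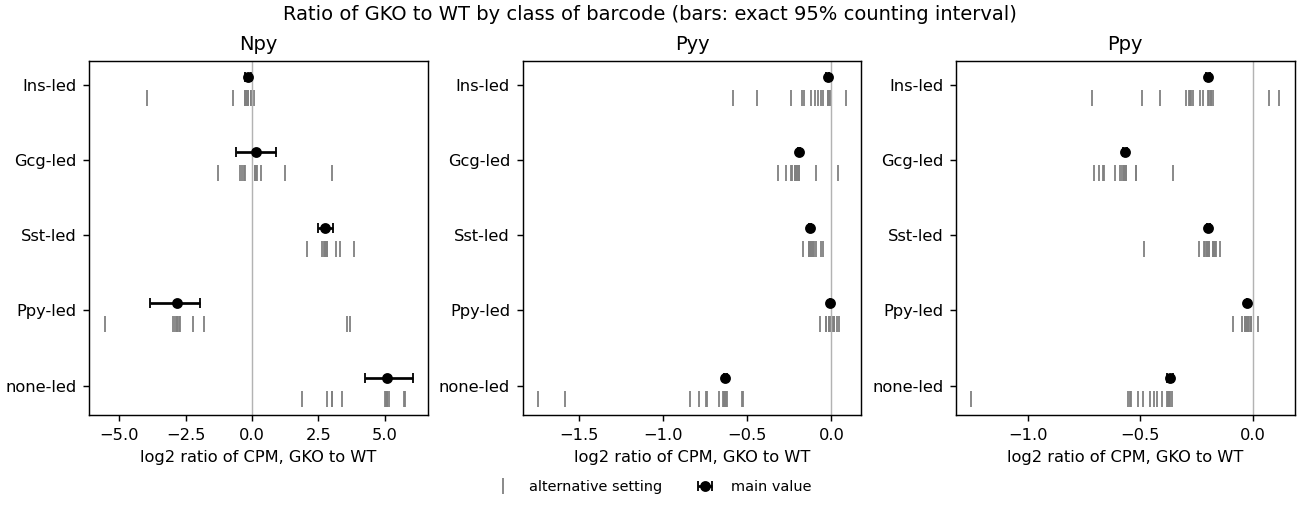
Log2 ratio of GKO to WT for each member by class of barcode. Black points are the main values with exact 95% counting intervals, and gray ticks are the values under alternative settings. Npy in Sst-led barcodes, the contrast on which the family was selected, stayed between 2.08 and 3.87. Npy in Ppy-led barcodes lay on both sides of 0.

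Within barcodes of the hormone-led classes, the Pyy share went with the Ppy share in Ins-led and Gcg-led barcodes and not in Sst-led barcodes. The Ppy-led class was formed on Ppy, so its Ppy range is limited and it cannot be set beside them. In WT Ins-led barcodes the median Pyy share was 0.029% where Ppy was under 0.1%, 0.486% where Ppy was 0.1% to 1%, 1.55% where it was 1% to 5%, and 4.23% where it was 5% or more. The GKO medians were 0.022%, 0.832%, 1.28% and 4.26%. Gcg-led barcodes had the same order, from 0.268% to 4.81% in WT and from 0.214% to 6.16% in GKO. In Sst-led barcodes no such order was seen, with medians of 4.34%, 5.04%, 4.84% and 4.87% in WT and 3.97%, 5.00%, 4.63% and 4.02% in GKO. In none-led barcodes the medians had the order of Ins-led barcodes, from 0.027% to 6.13% in WT and from 0.020% to 5.32% in GKO.

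As a description over barcodes, which share a library and a pool of free RNA, the Spearman rho of the Pyy and Ppy shares was 0.58 over 2265 WT and 0.53 over 872 GKO Ins-led barcodes, and 0.66 over 1048 WT and 0.62 over 1397 GKO Gcg-led barcodes. It was 0.06 over 1414 WT and −0.05 over 1003 GKO Sst-led barcodes, and −0.06 over 717 WT and −0.01 over 669 GKO Ppy-led barcodes. In none-led barcodes it was 0.43 over 1656 WT and 0.25 over 2405 GKO barcodes. In Ins-led barcodes both shares fell with the insulin share, at a rho of −0.58 in both libraries for Pyy. For Ppy it was −0.52 in WT and −0.50 in GKO. With the Gcg share in Gcg-led barcodes it was −0.12 and −0.07 for Pyy and −0.18 and −0.15 for Ppy. The part of the leading hormone in the relation of Pyy to Ppy was not tested. A second hormone at 5% or more was carried by all 78 WT and all 23 GKO Ins-led barcodes of the highest Ppy group, as that limit itself implies, and by 53 of 167 and 19 of 59 in the group of 1% to 5%. Among Ins-led barcodes without a second hormone at that level, 7.90% in WT and 5.61% in GKO still had at least 1% Pyy. The part of barcodes that hold more than 1 cell in this relation was otherwise not tested.

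**Figure D4:**
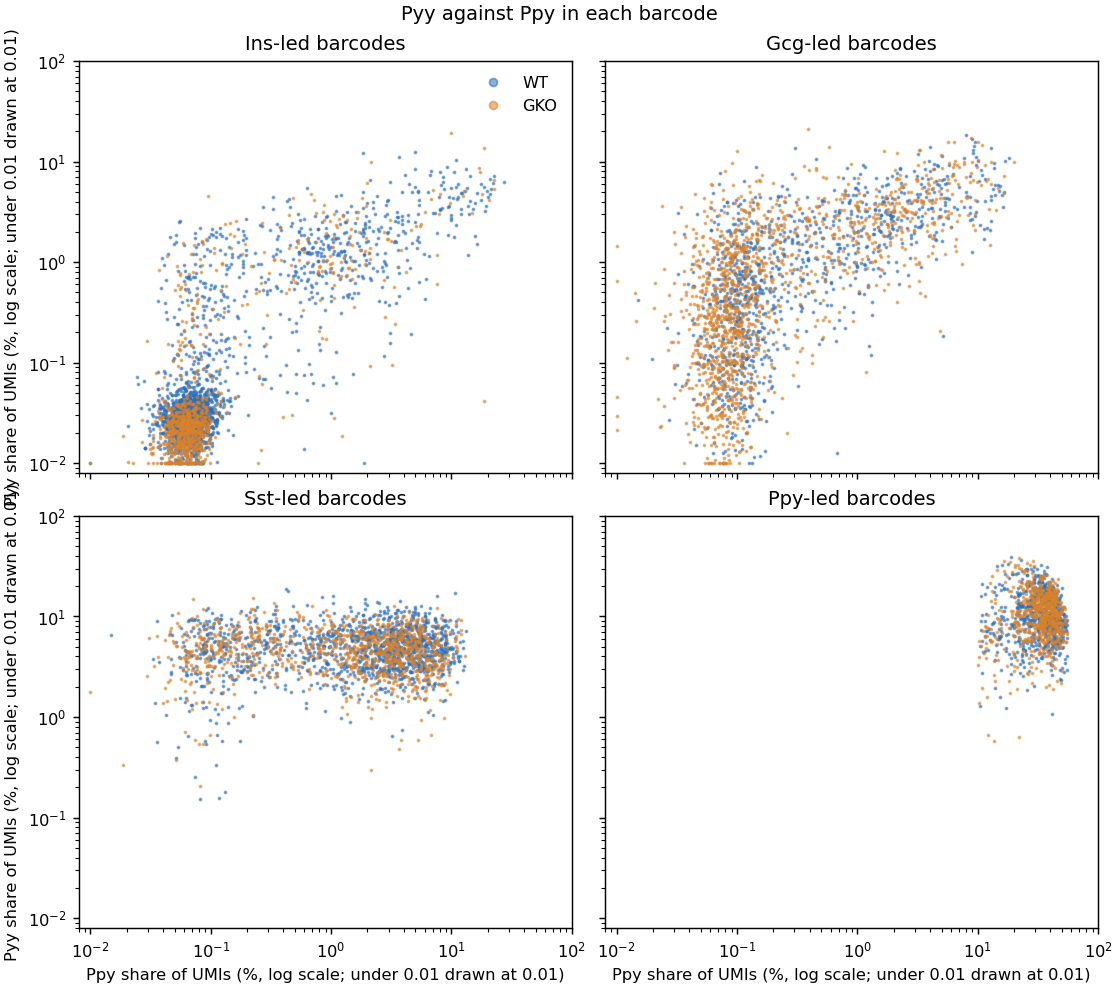
Pyy share against Ppy share of UMIs (both in percent, log scale) in each barcode of the 4 hormone-led classes, with WT in blue and GKO in orange. The cloud rises from lower left to upper right in Ins-led and Gcg-led barcodes, whereas Sst-led barcodes form a flat band near 5% Pyy at every level of Ppy.

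Over the 10 sums made by 5 classes in 2 libraries, the Pearson r of log2(CPM + 1) was 0.92 between Pyy and Ppy, −0.34 between Npy and Pyy, and −0.31 between Npy and Ppy. Among 12292 genes with at least 500 UMIs, the 5 most like Pyy were Dyrk3 (0.99), Slc5a9 (0.98), Krtap17-1 (0.97), Folr1 (0.97) and Olfm3 (0.95). Those most like Ppy were Krtap17-1 (0.93), Folr1 (0.92), Apof (0.91), Jph4 (0.91) and Gpx2 (0.91). Folr1, a folate receptor, had 368 CPM in WT and 339 CPM in GKO among Ppy-led barcodes, 228 and 214 CPM in Sst-led, and 42.9 and 42.2 CPM in Ins-led barcodes. The genes most like Npy were Foxred2 (0.84), Ttyh2 (0.81), Abat (0.80), Ggt7 (0.80) and Hhat (0.80), and of these Abat, which breaks down the transmitter GABA, had 36.8 and 40.2 CPM in Sst-led and 31.0 and 33.5 CPM in Ins-led barcodes. Of the Npy sums, that of GKO none-led barcodes had 452 of 508 UMIs from 1 barcode, and that of WT Ppy-led barcodes 92 of 94. Foxred2 ran from 1.74 to 4.35 CPM and Hhat from 1.16 to 4.15 CPM over the 10 sums. The genes named are the highest of 12292 over 10 values. The sums share libraries and cells, so these values describe a pattern and carry no test.

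Receptors of the family were scarce in the endocrine classes. Of the 5 receptor genes, Npy1r was the only one with 50 or more UMIs in any class. Npy2r and Npy6r had 0 UMIs in every class, Npy4r had 1 and Npy5r had 2. In none-led barcodes Npy1r had 475 UMIs in WT (27.0 CPM) and 808 in GKO (37.0 CPM), a log2 ratio of 0.46 (0.29 to 0.62). Barcodes with stellate or fibroblast genes held 83.1% and 89.1% of all Npy1r UMIs in kept barcodes, at 104 and 99.9 CPM, and 32.0% and 28.2% of them had at least 1. The number of these barcodes was 493 in WT and 1036 in GKO. In Ins-led barcodes Npy1r had only 24 and 26 UMIs, or 0.2695 and 0.792 CPM, which makes it 1 of 1 measured receptor past 2-fold in a class where 2.33% of genes were.

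Genes that process the precursors were abundant. All 6 listed processing genes had enough UMIs in all 5 classes, and 0 differed 2-fold in any of them. Over all genes compared the share was 1.21% to 2.33% in the hormone-led classes and 5.28% in none-led barcodes. A count of 0 among 6 genes is near such shares. The median log2 ratio of the list was 0.08 in Ins-led, −0.12 in Gcg-led, −0.07 in Sst-led and 0.04 in Ppy-led barcodes. In none-led barcodes it was −0.31. In Sst-led barcodes the amidating enzyme gene Pam had 587 CPM in WT and 514 CPM in GKO, a log2 ratio of −0.19 (−0.24 to −0.14). Pcsk1, a prohormone convertase, had 51.3 and 39.2 CPM there, a log2 ratio of −0.39 (−0.56 to −0.22), and the convertase Pcsk2 had 2526 and 2330 CPM, a log2 ratio of −0.12 (−0.14 to −0.09). In Ppy-led barcodes Pcsk2 had 2027 and 1868 CPM, and Pcsk1 had 23.9 and 25.9 CPM.

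Of 5 listed peptidases that can cut these peptides, 3 had enough UMIs in each hormone-led class and 0 differed 2-fold. That count is near the 1.21% to 2.33% of all genes compared in these classes. Dpp4, the peptidase that trims the first residues of neuropeptide Y and peptide YY, had 35.2 CPM in WT and 45.2 CPM in GKO among Sst-led barcodes, a log2 ratio of 0.36 (0.18 to 0.53), and 20.4 and 20.8 CPM among Ins-led barcodes.

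A list of 26 other peptide hormone and neuropeptide genes was set beside Npy. In Sst-led barcodes 9 of the 26 had enough UMIs, 0 were 2-fold higher and 2 were 2-fold lower in GKO, Cartpt (63 and 18 UMIs, log2 ratio −1.20) and the deleted Ghrl (58 and 0 UMIs), and the median log2 ratio was −0.07. In Gcg-led barcodes 11 had enough UMIs, and Cartpt, the precursor of cocaine- and amphetamine-regulated transcript peptides, had 8 UMIs in WT and 1030 in GKO, while Ghrl was 2-fold lower. In Ins-led barcodes 11 had enough UMIs, with Penk higher (100 and 102 UMIs at 1.12 and 3.11 CPM) and Ghrl lower. In Ppy-led barcodes 8 had enough UMIs, with Penk and Pnoc 2-fold higher and Ghrl and Ucn3 2-fold lower. In none-led barcodes 16 had enough UMIs, with 3 higher and 4 lower. The shares of all genes compared that differed 2-fold were 1.21% in Sst-led, 1.49% in Gcg-led and 2.33% in Ins-led barcodes. In Ppy-led and none-led barcodes they were 1.55% and 5.28%. How these UMIs spread over barcodes was not examined.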

How the data were processed

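UMI counts of 1 WT and 1 GKO library were used. The authors mapped reads of a 10x Genomics 3′ v3.1 kit and made the count tables in Cell Ranger 5.0.1, and the submitters' processing notes name mm10. The deposited counts are unscaled, cover barcodes called as cells, and keep free RNA. Kept barcodes had 500 genes or more and up to 10% mitochondrial UMIs, and doublets were not removed. UMIs were summed per class and library and given as CPM over all UMIs of the sum. Ratios have exact conditional intervals for 2 Poisson sums, and shares have Clopper-Pearson intervals, both at 95%. A test between genotypes was not possible with 1 library each. Npy-rich barcodes had at least 5 Npy UMIs, and their companion genes needed 20 UMIs in them in each library. Barcodes with genes of another cell type needed 5 UMIs of its list. The members, gene lists and rules were chosen with earlier results of these data known. Named genes are the members, the fixed lists, the 5 companions of Npy, and the 5 genes most like each member.

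Doublet scores compared each barcode with its neighbors among artificial doublets, over a neighbor share of 0.27 for the WT and 0.005 for the GKO library, and 7.6% of barcodes were called. The WT calls took in 0 of 849 barcodes with a second hormone at 5% or more, against 174 of 566 in GKO, so a share of 0.005 was also tried in both. TMM factors came from edgeR 4.0.16 (R 4.3.3), and the rest was computed in Python 3.11.15 with scipy 1.17.1, numpy 2.4.6, matplotlib 3.10.9 and pandas 2.3.3. Sequences and gene positions came from GENCODE vM21 on GRCm38. Intervals were tested on simulated Poisson sums, which lack the clumping of UMIs in a few barcodes, and thinning on simulated counts. Alternatives changed the limits, the hormone limit (5%, 20%), doublets, the CPM total, scaling, weights, free RNA and the richest barcodes, and 3 of them were added after the data were seen.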

Additional observations from a re-analysis of the deposited data

Results flagged for a closer look

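With all kept barcodes, the log2 ratio of Npy (GKO to WT) was 2.77 in Sst-led and 5.09 in none-led barcodes against −0.16 in Ins-led and −2.82 in Ppy-led barcodes. The family was selected on the Sst-led value, and neither negative value held in every setting. The Ins-led value was 0.09 without called doublets and −0.01 with doublets called at 1 neighbor share. The Ppy-led value was 3.57 without barcodes with a second hormone. The difference between classes was not tested, since each genotype is 1 library. In none-led and Ppy-led barcodes 1 barcode held most of the Npy UMIs of one library, 452 of 508 in GKO and 92 of 94 in WT.

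Among the barcodes left out for too few genes or too many mitochondrial UMIs, 1 GKO barcode held 322 of the 346 Npy UMIs, and the Npy-richest left-out WT barcode held 3. The GKO barcode had 16.2% mitochondrial UMIs, 68692 UMIs in all and 8118 genes. It carried 745 UMIs of the neuron list, 692 of Vip and 59 of Slc18a3, and 0 of Th and Dbh. The kept GKO barcode with 452 Npy UMIs had 899 UMIs of the neuron list, 522 of Vip and 39 of Slc18a3. It also had 172 UMIs of listed endothelial genes and 133 of listed macrophage genes.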

How the results depend on the processing

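With 1 library per genotype the values carry counting error only, and a difference between mice could not be separated from one between genotypes. Scarce Npy limits most of its ratios, since a few barcodes carry each sum. No paired analysis was possible because each genotype has 1 library.

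The family was selected on the Npy contrast in Sst-led barcodes, and the alternatives draw on the same UMIs. A shared sign among them is therefore a description and adds no support. The Npy log2 ratio in Sst-led barcodes was above 0 in all 17 alternatives. It was 3.87 with a hormone limit of 20%, 3.34 without barcodes with a second hormone, 3.16 without the 5 richest barcodes and 2.08 with the none-led level subtracted, a level that 1 GKO barcode with neuron genes raises. In Ppy-led barcodes the Npy ratio reversed to 3.57 without barcodes with a second hormone and to 3.69 with doublets called at 1 neighbor share, because both leave out the WT barcode with 92 UMIs. The share of Sst-led barcodes with an Npy UMI was 0.708% in WT at 2000 UMIs and 4.89% in GKO without thinning.

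Pyy ratios have narrow counting intervals, so many alternatives moved them beyond these. In Gcg-led, Sst-led and Ppy-led barcodes they were −0.27, −0.063 and 0.0061 with a hormone limit of 20%, −0.094, −0.092 and −0.033 without a second hormone, −0.32, −0.11 and 0.047 without called doublets, −0.24, −0.17 and −0.070 with TMM factors, −0.21, −0.12 and 0.011 with barcodes weighted equally, −0.21, −0.11 and 0.012 after thinning, 0.041, −0.048 and 0.031 with the none-led level subtracted, and −0.22, −0.13 and −0.013 without the 5 richest barcodes. In Gcg-led and Ppy-led barcodes they were −0.23 and 0.015 with doublets called at 1 neighbor share and −0.22 and −0.013 with a total without ribosomal protein and mitochondrial genes. In Sst-led and Ppy-led barcodes they were −0.13 and −0.030 with a total without hormone genes, and in Gcg-led barcodes −0.21 with the endothelial and macrophage level subtracted. In Ins-led barcodes the Pyy ratio ran from −0.59 without called doublets to 0.085 with doublets called at 1 neighbor share, and 15 of 16 alternatives kept its direction. The Pyy direction held in all 17 alternatives in Sst-led, in 16 in Gcg-led and in 11 in Ppy-led barcodes. The cause was not tested.

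Genes differing 2-fold numbered 304 in Ins-led, 178 in Gcg-led, 144 in Sst-led, 178 in Ppy-led and 738 in none-led barcodes. With at least 200 UMIs they numbered 105, 45, 33, 43 and 384, and with 1 UMI in each library 1715, 1436, 1411, 1558 and 2173. In Ins-led barcodes 163 of the 304 were higher in GKO, and 127 of 304 with TMM factors. The none-led subtraction gave no value for Npy in Gcg-led and Ppy-led and for Pyy in Ins-led barcodes, and leaving out the 5 richest barcodes gave none for Npy in Ppy-led barcodes, because a level of 0 or less was left.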
